A study of Moricandia moricandioides and Moricandia arvensis and Moricandia suffruticosa with 11 samples.

Results

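Transcript abundance in mature leaves of *Moricandia suffruticosa*, a C3–C4 intermediate, was compared with that in mature leaves of the C3 species *M. moricandioides*. The comparison took 7 of the 11 libraries of the study, namely those of *M. suffruticosa* plants 6, 7 and 8 and of *M. moricandioides* plants 6, 8, 12 and 15, and all gene models with enough reads. The other 4 libraries came from a second intermediate, *M. arvensis* line MOR1 (plants 9, 12, 13 and 15), and were used for the estimate of the spread and for values set beside those of *M. suffruticosa*. Each library was made from a separate wild-type plant, with no treatment. *M. suffruticosa* was raised from 1 seed stock of the Royal Botanic Gardens in Kew and *M. moricandioides* from 1 stock of the Botanic Gardens in Osnabrück, so that photosynthesis type, species and seed stock cannot be told apart. All plants grew in the same climate chamber in days of 12 h at 23 °C with nights at 20 °C and about 200 µmol s-1 m-2 of light, and leaves were frozen about 2 h into the light period, before flowering.

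In a C3 leaf, Rubisco takes up O2 besides CO2, and photorespiration recovers the resulting 2-phosphoglycolate through chloroplast, peroxisome and mitochondrion, where glycine decarboxylase releases CO2 and ammonia. In C3–C4 intermediates glycine from the mesophyll is decarboxylated in mitochondria of the bundle sheath, the cell layer around the veins, and part of the CO2 is fixed again there. Such a glycine shuttle moves nitrogen along with carbon, and amino acids and organic acids that could carry it back are made by aminotransferases and by enzymes that C4 plants use in their CO2 pump. The study asked which transcripts accompany this type of leaf.

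Between 10987959 and 14144453 reads were counted per *M. suffruticosa* plant and between 12259898 and 14865167 per *M. moricandioides* plant. The share of sequenced reads that mapped was 79.8, 82.0 and 84.4% in *M. suffruticosa* plants 6, 7 and 8 and 85.4, 85.9 and 86.0% in *M. moricandioides* plants 6, 8 and 12. *M. suffruticosa* plants 6 and 7 lay closer together (Pearson correlation of log2 values 0.991 across genes, which are not independent replicates) than either did to plant 8 (0.959 and 0.963), while pairs of *M. moricandioides* plants reached 0.957 to 0.970. Levels are reads per 1000000 counted reads (rpm), given for *M. suffruticosa* plants 6, 7 and 8 and then for *M. moricandioides* plants 6, 8, 12 and 15. As a check of the leaf label, RBCS1A (AT1G67090), a small subunit of Rubisco, had 11550, 11850 and 12540 rpm in *M. suffruticosa*, against 15070, 17860, 15810 and 20050 rpm in *M. moricandioides*. In whole leaves, fewer cells of a type and less RNA per cell cannot be told apart. Reads were assigned to Arabidopsis genes, so those of similar gene copies may have been exchanged, and a gene model listed at 0 may have lost its reads to such a copy, which was not tested.

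Of 33602 gene models, 18685 had at least 1 read in these 7 libraries and 15570 had enough reads over all 11 libraries to be tested. In *M. suffruticosa* 1577 transcripts were higher (10.1% of those tested) and 1373 lower (8.82%), together 18.9%, at an adjusted p of 0.01 or less by the quasi-likelihood test of edgeR with Benjamini–Hochberg adjustment. The median log2 fold change, always of *M. suffruticosa* over *M. moricandioides*, was 0.01 over all tested transcripts, 1.46 over the higher and -1.34 over the lower ones. A value after ± beside a log2 fold change is its standard error, not the spread among plants. This error is the absolute log2 fold change divided by the square root of the F value of the test. More than 2-fold differences were found in 1184 higher and 975 lower called transcripts, more than 4-fold ones in 492 and 418, and more than 16-fold ones in 141 and 127. The plants of the 2 species did not overlap in 3831 transcripts that were higher (24.6% of those tested) and 2641 that were lower (17.0%), called or not. Lack of overlap, where given below, is to be read beside these shares. Among the 1614 transcripts at 100 rpm or more, 157 were higher and 222 lower, whereas among the 5993 below 10 rpm 569 were higher and 397 lower. With *M. suffruticosa* plant 6 or 7 left out, 973 or 975 transcripts were called higher and 683 or 659 lower, of 15846 or 15844 tested. With both summed to 1 replicate 1003 were higher and 697 lower. Without *M. arvensis* plant 9, 1768 were higher and 1693 lower of 15540 tested. Without *M. arvensis* plant 12, 13 or 15 the higher numbered 1481, 1384 and 1386 and the lower 1307, 1293 and 1294. Leaving out *M. moricandioides* plant 6, 8, 12 or 15 gave 1201, 1175, 1398 and 1257 higher and 1069, 1086, 1278 and 1117 lower. With *M. suffruticosa* plant 8 left out 1436 were higher and 1105 lower. In these settings 15443 to 15908 transcripts were tested. Counts of list members with 1 plant left out, given below, are to be read beside such changes in the totals.

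**Figure D1:**
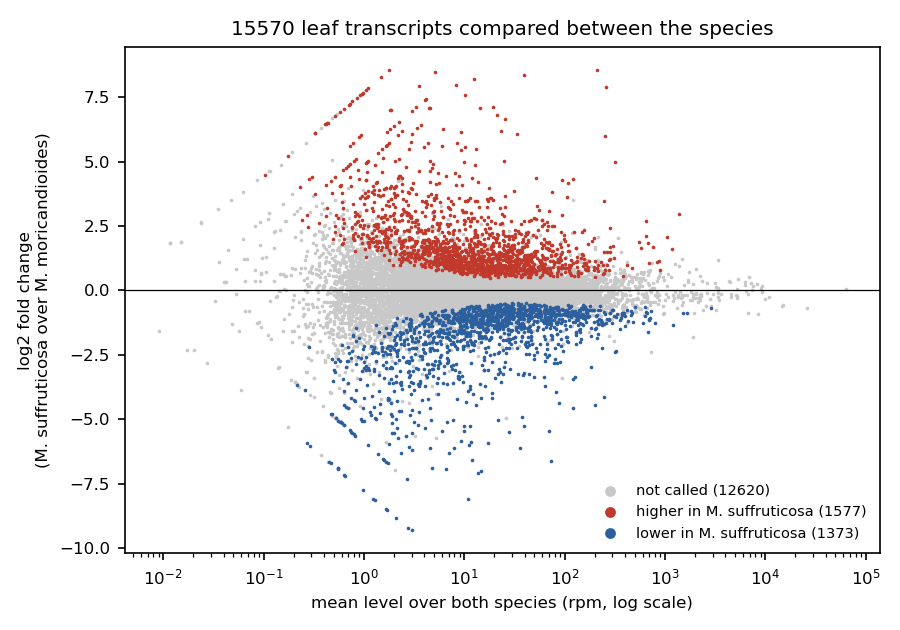
Log2 fold change of *M. suffruticosa* (n = 3 plants) over *M. moricandioides* (n = 4 plants) against the mean level over both species on a log axis, 1 point per tested transcript. The 1577 higher and 1373 lower transcripts spread over the whole range of levels, and the diagonal lines at low levels are transcripts with 0 or few reads in one species.

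The transcripts that differed most were named by a rule that took the 14 highest and 14 lowest fold changes among called transcripts with a mean of at least 10 rpm in the species with more and no overlap of plants. Among the highest was DOX1 (AT3G01420), an α-dioxygenase that oxidizes fatty acids in wounded or infected leaves. It had 417, 640.1 and 200.2 rpm in *M. suffruticosa*, against 1.53, 0.734, 1.74 and 0.135 rpm in *M. moricandioides* (log2 fold change 8.55 ± 0.56, adjusted p = 2.1e-06), and no *M. suffruticosa* plant came near the C3 range. AT4G28940, of the phosphorylase superfamily, had 508, 613 and 443 rpm in *M. suffruticosa*, against 4.38, 0.897, 2.1 and 0.807 rpm in *M. moricandioides* (log2 fold change 7.91 ± 0.92, adjusted p = 8.8e-05). The polyketide cyclase-like AT1G23120 had 69.3, 81.9 and 82.5 rpm in *M. suffruticosa*, against 0.486, 0.0816, 0.145 and 0.135 rpm in *M. moricandioides* (log2 fold change 8.36 ± 0.79, adjusted p = 2.6e-05). All 3 transcripts were at 69.3 rpm or more in every *M. suffruticosa* leaf and at 4.38 rpm or less in every *M. moricandioides* leaf. SKIP16 (AT1G06110), a partner of the SKP1 subunit of ubiquitin ligases, had 626 reads in *M. suffruticosa* against 3 in *M. moricandioides*, a ratio of 294 after scaling for depth with a 95% interval of 100 to 1430 that covers counting error only. AT3G44450, which the files do not describe, had 415 reads against 1, a ratio of 585 (104 to 23200). The putative calcium-transporting ATPase AT5G53010 (8.21), the dihydroflavonol reductase-like AT4G35420 (7.12), the methyltransferase AT4G36470 (6.82), the 2-oxoglutarate-dependent oxygenase AT5G12270 (6.66), the oxidoreductase AT5G01670 (6.25), the F-box protein AT4G00160 (6.2), the leucine-rich repeat protein AT4G06744 (6.16) and the undescribed AT5G41761 (7.6) had the log2 fold changes given. The remaining one, SEN1 (AT4G35770), is taken up with the dark-induced transcripts.

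Among the lowest was FWA (AT4G25530), a homeodomain protein that delays flowering when it is active in Arabidopsis, with 3 reads in *M. suffruticosa* against 1245 in *M. moricandioides*, where the ratio of *M. moricandioides* over *M. suffruticosa* was 294 (101 to 1430). ZIP10 (AT1G31260), of the zinc transporter family, had 0.425, 0.141 and 0 rpm in *M. suffruticosa*, against 32.6, 30.9, 21.1 and 24.5 rpm in *M. moricandioides* (log2 fold change -7.08 ± 0.42, adjusted p = 1.1e-06). The abundant Rossmann-fold protein AT1G32220, annotated to the thylakoid, had 2.34, 1.91 and 0.273 rpm in *M. suffruticosa*, against 153, 136, 148 and 146 rpm in *M. moricandioides* (log2 fold change -6.63 ± 0.48, adjusted p = 4.3e-06). Both were at or below 2.34 rpm in every *M. suffruticosa* plant. PIP (AT2G14260), a proline iminopeptidase that removes proline from the start of peptides, had 0.567, 0.353 and 0.273 rpm in *M. suffruticosa*, against 23, 25.3, 19.9 and 24.5 rpm in *M. moricandioides* (log2 fold change -5.88 ± 0.23, adjusted p = 8.2e-08). HSD2 (AT3G47350), a hydroxysteroid dehydrogenase, had 0.425, 0.495 and 0.819 rpm in *M. suffruticosa*, against 14.2, 63.9, 22.8 and 33.4 rpm in *M. moricandioides* (log2 fold change -5.92 ± 0.56, adjusted p = 2.6e-05). The undescribed AT5G05250 had 1.42, 0.848 and 0.91 rpm in *M. suffruticosa*, against 96.8, 46.2, 52.2 and 91 rpm in *M. moricandioides* (log2 fold change -6.14 ± 0.45, adjusted p = 4.6e-06). The tetratricopeptide protein AT4G08320 (-7.03), the RNI-like protein AT5G01720 (-6.58), the nucleotidyltransferase AT3G61690 (-6.01) and the undescribed AT5G45310 (-6.93), AT5G55060 (-6.31), AT1G73120 (-6.13), AT2G30760 (-5.85) and AT2G30766 (-5.5) completed the group. Adjusted p-values of the 28 transcripts ran from 8.2e-08 for PIP to 0.00043 for SEN1. None lost its call when any single plant was left out.

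**Figure D2:**
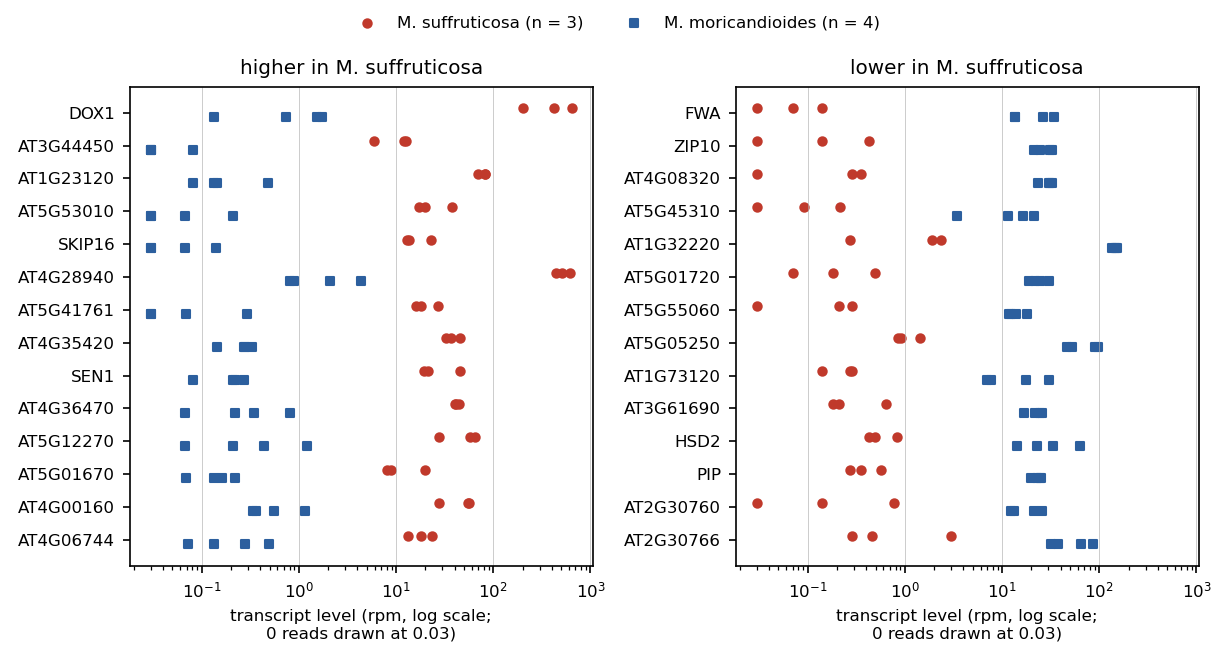
Level of the 14 most increased (left) and 14 most decreased (right) transcripts in each plant, in rpm on a log axis with 0 reads drawn at 0.03. Circles are the 3 *M. suffruticosa* plants and squares the 4 *M. moricandioides* plants. The species lie apart in every row because the rule took only transcripts without overlap. DOX1, for example, was at 200.2 rpm or more in *M. suffruticosa* and 1.74 rpm or less in *M. moricandioides*.

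Some transcripts were read in *M. suffruticosa* but not in *M. moricandioides*, or the reverse. Over all plants of these species, 602 gene models had reads in *M. suffruticosa* and 0 in *M. moricandioides*, 108 of them with at least 10 reads. In the reverse direction there were 684, 118 of them with at least 10 reads. Reads in *M. arvensis* did not enter these counts. Most reads of the first kind fell to NAC027 (AT1G64105), a NAC transcription factor, with 144 reads in *M. suffruticosa* and 0 in *M. moricandioides*, at least 67.7-fold higher when the C3 group is set to the floor of 3 reads over the group. Next came the peroxidase AT4G33870 with 110 reads, the RNA-binding protein AT3G10845 with 91, the ABC transporter PDR13 (AT4G15215) with 82, the FBD-like protein AT5G62970 with 78 and the lipoprotein AT4G30670 with 77, each against 0. The *M. arvensis* plants had 162 reads for NAC027 and 135, 22, 21, 72 and 88 for the others in this order. In the other direction AT2G47430, a histidine kinase, had 0 reads in *M. suffruticosa* and 322 in *M. moricandioides*, at least 76.2-fold lower. ARAD2 (AT5G44930), of a family with an arabinan-synthesis enzyme, had 0 against 303 reads, the PHD finger protein AT5G58610 0 against 230, the aspartyl protease AT1G65240 0 against 185 and the xyloglucan transferase XTH33 (AT1G10550) 0 against 187. XTH33 lost its call without *M. suffruticosa* plant 6, 7 or 8 (adjusted p up to 0.015). MIF2 (AT3G28917), a mini zinc finger protein, had 0 against 268 reads, but nearly all of these came from *M. moricandioides* plant 6 (18.5 rpm), and it was not tested. In the *M. arvensis* plants AT2G47430 and ARAD2 had 1 read each, AT5G58610 and MIF2 0, AT1G65240 19 and XTH33 28.

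Functions were followed with 35 gene lists, for which the share of called members is read against 10.1% higher and 8.82% lower over all transcripts. No list was tested as a whole. Members and lists were chosen with earlier results of these data known, so their shares are not independent of that choice. Aspartate and alanine aminotransferases, indole glucosinolate synthesis and starch metabolism held the highest shares of higher transcripts, and chlorophyll synthesis, phenylpropanoid synthesis and aquaporins the highest net shares of lower ones. By this test no member was called in the lists of light harvesting (1 of 38 at an unadjusted p under 0.05), sucrose (2 of 13), phosphate (6 of 21), guard cells (7 of 14), dividing cells (2 of 16) and glucosinolate breakdown (0 of 4). Over all 15570 tested transcripts, 7005 had an unadjusted p under 0.05. DESeq2 called 1 sucrose, 2 phosphate and 2 guard cell transcripts at the same adjusted p, and the exact test of edgeR 2, 2 and 3, while both called 0 in the other 3 lists. Of all 15570 transcripts DESeq2 called 4220 and the exact test 3967.

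**Figure D3:**
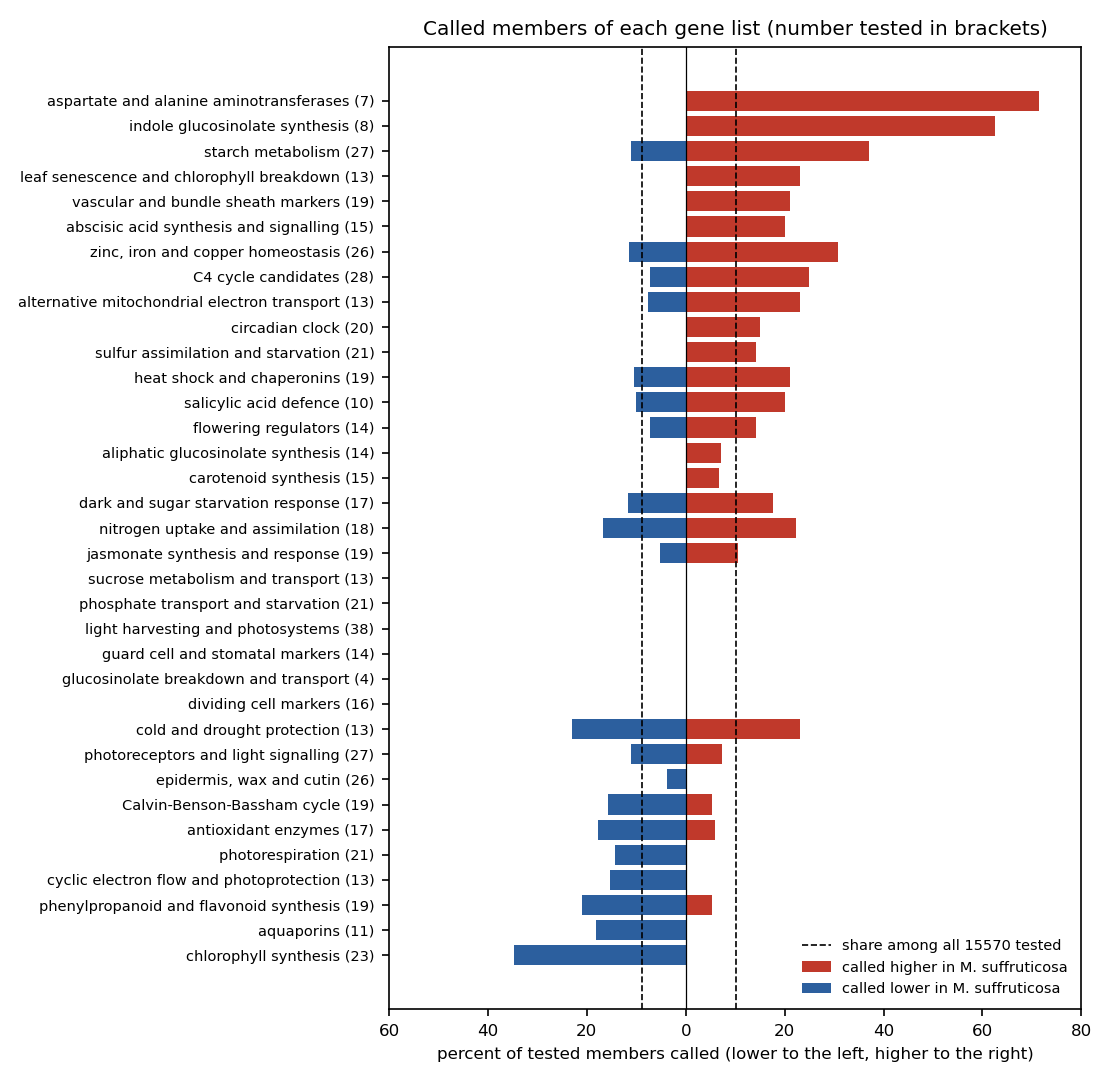
Percent of the tested members of each gene list that were called higher (to the right) or lower (to the left) in *M. suffruticosa* than in *M. moricandioides*, with the number tested in brackets. Dashed lines mark the 10.1% higher and 8.82% lower among all 15570 tested transcripts, and the bars range from 71.4% higher among 7 aminotransferases to 34.8% lower among 23 transcripts of chlorophyll synthesis. The lists were chosen with earlier results of these data known.

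Photosynthesis transcripts differed little at the level of the photosystems. The summed levels of the Calvin–Benson–Bassham (CBB) cycle and of chlorophyll synthesis were lower. Of 38 tested transcripts of light harvesting and the photosystems none was called (median log2 fold change -0.15), and their sum was 205100 to 242900 rpm in *M. suffruticosa* and 189400 to 232400 rpm in *M. moricandioides*. LHCB1.2 (AT1G29910), the main light-harvesting protein of photosystem II, had 55680 to 83110 rpm in *M. suffruticosa* and 51960 to 66300 rpm in *M. moricandioides*. The oxygen-evolving PSBO2 (AT3G50820) had 9790 to 10660 rpm in *M. suffruticosa* and 10840 to 12490 rpm in *M. moricandioides*, without overlap and with an adjusted p of 0.52. Of 19 tested CBB transcripts 1 was higher and 3 were lower (median -0.60), or 21.1% called, beside 18.9% of all transcripts. The summed level of the list, 73330 to 81760 rpm in *M. suffruticosa* against 95910 to 111500 rpm in *M. moricandioides*, did not overlap between the species. The higher one was CP12-2 (AT3G62410), a small protein that ties up 2 CBB enzymes in the dark, with 2306, 1825 and 1290 rpm in *M. suffruticosa*, against 565, 598, 503 and 560.0 rpm in *M. moricandioides* (log2 fold change 1.62 ± 0.29, adjusted p = 0.0012). The lower ones were ribose-5-phosphate isomerase RPI3 (AT3G04790; log2 fold change -1.17 ± 0.24, adjusted p = 0.0031), AT1G73110, a nucleoside triphosphatase listed for its likeness to Rubisco activase (log2 fold change -0.95 ± 0.24, adjusted p = 0.0089), and triosephosphate isomerase TPI (AT2G21170; log2 fold change -0.76 ± 0.16, adjusted p = 0.0041). RPI3 lost its call without *M. suffruticosa* plant 6 or 7 (adjusted p up to 0.020), AT1G73110 without *M. suffruticosa* plant 6, 7 or 8, *M. moricandioides* plant 8 or 15 or *M. arvensis* plant 12 or 15 (adjusted p up to 0.041) and TPI without *M. suffruticosa* plant 6 or 7 (adjusted p up to 0.029). Rubisco activase RCA (AT2G39730) had 12120, 11470 and 13650 rpm in *M. suffruticosa*, against 16710, 18110, 16910 and 18320 rpm in *M. moricandioides*, and the small subunit RBCS3B (AT5G38410) 19190, 19850 and 22490 rpm in *M. suffruticosa*, against 28180, 32410, 28350 and 35740 rpm in *M. moricandioides*, without overlap in either case but with adjusted p-values of 0.11 and 0.087 (0.00827 and 0.00453 without *M. arvensis* plant 9). Of all tested transcripts 17.0% were lower without overlap. Leaving out *M. arvensis* plant 9, which shares in the estimate of the spread, brought the lower CBB transcripts to 10 of 19, while without *M. suffruticosa* plant 6 there were 0. Over all transcripts, 1693 of 15540 were lower in the former setting and 683 of 15846 in the latter.

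Chlorophyll synthesis had 8 lower and 0 higher of 23 tested members (median -0.44), and the sum was 11320 to 11640 rpm in *M. suffruticosa* against 13080 to 14300 rpm in *M. moricandioides*. Early steps of the pathway, which build the tetrapyrrole ring, were among them. HEMC (AT5G08280), hydroxymethylbilane synthase, had 146, 153 and 139.5 rpm in *M. suffruticosa*, against 295, 331, 319.6 and 324 rpm in *M. moricandioides* (log2 fold change -1.2 ± 0.19, adjusted p = 0.00072). HEMD (AT2G26540), the next enzyme, had 22.7, 22.8 and 19.6 rpm in *M. suffruticosa*, against 47.5, 52.9, 40.6 and 50.3 rpm in *M. moricandioides* (log2 fold change -1.21 ± 0.20, adjusted p = 0.00081). FLU (AT3G14110), which restrains the pathway in the dark, had 46.8, 43.9 and 68 rpm in *M. suffruticosa*, against 114, 112, 107 and 137 rpm in *M. moricandioides* (log2 fold change -1.21 ± 0.24, adjusted p = 0.0028) and lost its call without *M. suffruticosa* plant 6 or 7 (adjusted p up to 0.019). Later steps were lower too, with PORC (AT1G03630), the light-dependent protochlorophyllide reductase, at 410.1 to 494 rpm in *M. suffruticosa* and 872 to 1001 rpm in *M. moricandioides* (log2 fold change -1.15), and PORB, PPO2, DVR and LCAA at log2 fold changes of -0.79, -1.13, -0.91 and -0.92. CRD1 (AT3G56940), of the cyclase that LCAA also belongs to, and CHLH (AT5G13630), of the magnesium chelatase, were not called (adjusted p = 0.84 and 0.26). Between 2 and 10 members were lower when single plants were left out, the fewest without *M. suffruticosa* plant 6 and the most without *M. arvensis* plant 9. In the carotenoid list 1 of 15 was called, NSY (AT1G67080), needed for neoxanthin, with 27.8, 25.9 and 22.9 rpm in *M. suffruticosa*, against 12.7, 7.67, 11.7 and 11.4 rpm in *M. moricandioides* (log2 fold change 1.15 ± 0.23, adjusted p = 0.0028), and this call was lost without *M. suffruticosa* plant 6 or 7 (adjusted p up to 0.015). CCD4 (AT4G19170), which cleaves carotenoids, had 1611 to 1988 rpm in *M. suffruticosa* and 606 to 1171 rpm in *M. moricandioides* and missed the threshold (adjusted p = 0.018), as did ABA1 (AT5G67030; 0.77).

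Among 13 transcripts of cyclic electron flow and photoprotection, 2 were lower and 0 higher. Both belong to the chloroplast NDH complex, which returns electrons to plastoquinone. PNSB1 (AT1G15980) had 160.0, 159 and 157 rpm in *M. suffruticosa*, against 395, 326, 361 and 373 rpm in *M. moricandioides* (log2 fold change -1.27 ± 0.21, adjusted p = 0.00080). NDHM (AT4G37925) had 136, 116 and 114 rpm in *M. suffruticosa*, against 225, 215, 193 and 224 rpm in *M. moricandioides* (log2 fold change -0.88 ± 0.17, adjusted p = 0.0021), a call lost without *M. suffruticosa* plant 7 (adjusted p up to 0.016). PGRL1B (AT4G11960), of the other cyclic route, had 1316 to 1450 rpm in *M. suffruticosa* and 1507 to 1686 rpm in *M. moricandioides* (adjusted p = 0.28). GLK2 (AT5G44190), a transcription factor that turns on genes of chlorophyll synthesis and light harvesting, had 60.3, 60.2 and 81.5 rpm in *M. suffruticosa*, against 198, 168, 215 and 199 rpm in *M. moricandioides* (log2 fold change -1.61 ± 0.22, adjusted p = 0.00024).

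Of 21 tested photorespiratory transcripts 0 were higher and 3 lower (median -0.29), and the summed level overlapped, at 21180 to 25830 rpm in *M. suffruticosa* and 23660 to 25530 rpm in *M. moricandioides*. The P-protein of glycine decarboxylase GLDP2 (AT2G26080), the enzyme whose place in the leaf defines the glycine shuttle, had 2648, 2832 and 3994 rpm in *M. suffruticosa*, against 4502, 3438, 3461 and 3052 rpm in *M. moricandioides* (log2 fold change -0.25 ± 0.22, adjusted p = 0.41), so that the plants of both species overlapped. All P-protein reads were assigned to this Arabidopsis model of the reduced set and none to the other, GLDP1, which does not show which of these copies the *Moricandia* gene resembles. The authors assembled leaf transcripts of these *Moricandia* species and found only sequences close to Arabidopsis GLDP1. GGT2, GLDH1, mtLPD2 and DIT2.1 were likewise listed at 0 in these plants. PGLP1 (AT5G36700), the phosphatase that opens the pathway, had 475, 486 and 477 rpm in *M. suffruticosa*, against 766, 783, 856 and 816 rpm in *M. moricandioides* (log2 fold change -0.83 ± 0.19, adjusted p = 0.0053). SHM2 (AT5G26780), a mitochondrial serine hydroxymethyltransferase, had 21, 23.54 and 19.6 rpm in *M. suffruticosa*, against 36.9, 51.5, 33.8 and 34.9 rpm in *M. moricandioides* (log2 fold change -0.94 ± 0.20, adjusted p = 0.0034). Its partner SHM1 (AT4G37930) had 4457, 4465 and 6074 rpm in *M. suffruticosa*, against 3871, 3682, 3533 and 3793 rpm in *M. moricandioides* (log2 fold change 0.36 ± 0.24, adjusted p = 0.27), and the sum of both was 4478 to 6093 rpm in *M. suffruticosa* and 3566 to 3907 rpm in *M. moricandioides*. DIT2.2 (AT5G64280), of the dicarboxylate transporters that exchange glutamate and malate, had 112 to 137 rpm in *M. suffruticosa* and 167 to 210.2 rpm in *M. moricandioides* (log2 fold change -0.62 ± 0.15, adjusted p = 0.0068). PGLP1 lost its call without *M. suffruticosa* plant 6, 7 or 8 or *M. moricandioides* plant 12 or 15 (adjusted p up to 0.029), SHM2 without *M. suffruticosa* plant 6, 7 or 8 (adjusted p up to 0.018) and DIT2.2 without *M. suffruticosa* plant 6, 7 or 8, *M. moricandioides* plant 6, 8 or 15 or *M. arvensis* plant 12 (adjusted p up to 0.028). Without *M. suffruticosa* plant 6 none of the 21 was called.

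Most aminotransferase transcripts were higher. Of 7 tested aspartate and alanine aminotransferases 5 were higher and 0 lower (median 1.24), with a sum of 824.6 to 957.2 rpm in *M. suffruticosa* against 329.8 to 465.7 rpm in *M. moricandioides*. All 5 convert aspartate and 2-oxoglutarate into oxaloacetate and glutamate. ASP3 (AT5G11520) had 107, 116 and 112 rpm in *M. suffruticosa*, against 24, 22.8, 20.4 and 17.36 rpm in *M. moricandioides* (log2 fold change 2.34 ± 0.17, adjusted p = 4.3e-06). ASP1 (AT2G30970), the mitochondrial form, had 240.5, 270.0 and 298 rpm in *M. suffruticosa*, against 67.9, 93.7, 69.3 and 68.7 rpm in *M. moricandioides* (log2 fold change 1.78 ± 0.34, adjusted p = 0.0021). ASP4 (AT1G62800) had 53.5, 52.8 and 86.2 rpm in *M. suffruticosa*, against 13.4, 10.1, 8.47 and 9.08 rpm in *M. moricandioides* (log2 fold change 2.59 ± 0.23, adjusted p = 1.8e-05). In each of these the lowest *M. suffruticosa* plant was above 2 times the highest C3 plant. ASP2 (AT5G19550), the cytosolic form, had 64.7 to 90.3 rpm in *M. suffruticosa* and 25.6 to 34.6 rpm in *M. moricandioides* (log2 fold change 1.24, adjusted p = 0.0013). ASP5 (AT4G31990), the plastid form, had 216 to 227 rpm in *M. suffruticosa* and 96.5 to 148 rpm in *M. moricandioides* (log2 fold change 0.79 ± 0.18, adjusted p = 0.0065) and lost its call without *M. suffruticosa* plant 6, 7 or 8, *M. moricandioides* plant 6, 8 or 15 or *M. arvensis* plant 13 or 15 (adjusted p up to 0.021). The summed mean of *M. suffruticosa* was 2.35 times that of *M. moricandioides*.

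In nitrogen uptake and assimilation 4 of 18 tested transcripts were higher and 3 lower (median 0.31). Nitrate reductase was lower in both copies, NIA1 (AT1G77760) with 485, 434 and 395 rpm in *M. suffruticosa*, against 828, 876, 783 and 802 rpm in *M. moricandioides* (log2 fold change -0.98 ± 0.14, adjusted p = 0.00034), and NIA2 (AT1G37130) with 16.2, 15.3 and 16 rpm in *M. suffruticosa*, against 42, 46.4, 37.7 and 26.2 rpm in *M. moricandioides* (log2 fold change -1.33 ± 0.18, adjusted p = 0.00020). Summed over both, *M. suffruticosa* had 411 to 501 rpm and *M. moricandioides* 821 to 922 rpm. Asparagine turnover went both ways. ASN3 (AT5G10240), an asparagine synthetase, had 29.2, 30.5 and 37.1 rpm in *M. suffruticosa*, against 204, 228, 78.7 and 128 rpm in *M. moricandioides* (log2 fold change -2.35 ± 0.29, adjusted p = 0.00013), whereas ASN1 (AT3G47340), the synthetase induced in the dark, had 5.17, 4.67 and 3.73 rpm in *M. suffruticosa*, against 1.6, 1.22, 1.09 and 1.41 rpm in *M. moricandioides* (log2 fold change 1.68 ± 0.28, adjusted p = 0.00094). ASPGA1 (AT5G08100), which splits asparagine, had 25.6, 23.2 and 18.1 rpm in *M. suffruticosa*, against 6.39, 5.22, 7.75 and 3.9 rpm in *M. moricandioides* (log2 fold change 1.86 ± 0.21, adjusted p = 7.7e-05). Of the cytosolic glutamine synthetases, which assimilate ammonia outside the chloroplast, GLN1;4 (AT5G16570) and GLN1;2 (AT1G66200) were called higher, and no other listed copy was called. GLN1;4 had 321, 326 and 259 rpm in *M. suffruticosa*, against 163, 36.7, 38.4 and 66.8 rpm in *M. moricandioides* (log2 fold change 1.92 ± 0.42, adjusted p = 0.0042). GLN1;2 had 769 to 1292 rpm in *M. suffruticosa* and 397 to 495 rpm in *M. moricandioides* (log2 fold change 1.04). The call of GLN1;4 was lost without *M. suffruticosa* plant 6 or 7 or *M. moricandioides* plant 8, 12 or 15 (adjusted p up to 0.016). The chloroplast enzymes GLN2 (AT5G35630), which reassimilates ammonia from photorespiration, and GLU1 (AT5G04140), its glutamate synthase partner, had log2 fold changes of -0.63 and -0.29 (adjusted p = 0.11 and 0.30). GLN2 plants did not overlap, at 1974 to 2304 rpm in *M. suffruticosa* and 2896 to 3328 rpm in *M. moricandioides*, and without *M. arvensis* plant 9 its adjusted p was 0.0078. When 1 plant was left out, this list had 2 higher without *M. moricandioides* plant 12.

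C4 cycle candidates are the enzymes and transporters from which C4 plants build their CO2 pump. Of 28 tested, 7 were higher and 2 lower (median 0.35), while the summed level overlapped (13690 to 15230 rpm in *M. suffruticosa*, 14830 to 16810 rpm in *M. moricandioides*). PCK1 (AT4G37870), PEP carboxykinase, which decarboxylates oxaloacetate, had 2599, 2530 and 2237 rpm in *M. suffruticosa*, against 382, 252, 356 and 209 rpm in *M. moricandioides* (log2 fold change 2.96 ± 0.40, adjusted p = 0.00023). Its copy PCK2 (AT5G65690) had 69 reads in *M. suffruticosa* against 1 in *M. moricandioides*, a ratio of 97.3 (16.9 to 3900). PPC4 (AT1G68750), a PEP carboxylase of the type found in bacteria, had 33.2, 40.4 and 63.5 rpm in *M. suffruticosa*, against 11.9, 7.83, 11.5 and 8.95 rpm in *M. moricandioides* (log2 fold change 2.12 ± 0.35, adjusted p = 0.00079). No other PEP carboxylase of the list was called in either direction. The authors reported that the more abundant leaf copy was reduced in the intermediates and a less abundant copy enhanced. They found the activity of the enzyme unchanged. Smaller differences were seen for cytosolic malate dehydrogenase cMDH1 (1164 to 1294 rpm in *M. suffruticosa* and 454 to 589 rpm in *M. moricandioides*, log2 fold change 1.14), the PEP translocator PPT1 (1.1), the PEP carboxylase kinase PPCK1 (1.22) and plastid NADP-malic enzyme NADP-ME4 (0.84). Lower were carbonic anhydrase BCA3 (AT1G23730; log2 fold change -0.94 ± 0.19, adjusted p = 0.0032) and plastid malate dehydrogenase plNAD-MDH (AT3G47520; log2 fold change -0.84 ± 0.18, adjusted p = 0.0038). BCA3 lost its call without *M. suffruticosa* plant 6 or 7 (adjusted p up to 0.021) and plNAD-MDH without *M. suffruticosa* plant 6, 7 or 8 (adjusted p up to 0.024). Carbonic anhydrase BCA1 (AT3G01500) had 5885, 5588 and 6958 rpm in *M. suffruticosa*, against 10120, 11600, 10280 and 11990 rpm in *M. moricandioides*, with no overlap and an adjusted p of 0.043, or 0.000817 without *M. arvensis* plant 9. Leaving out 1 plant gave 0 lower without *M. suffruticosa* plant 6 and 4 lower without *M. arvensis* plant 9.

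**Figure D4:**
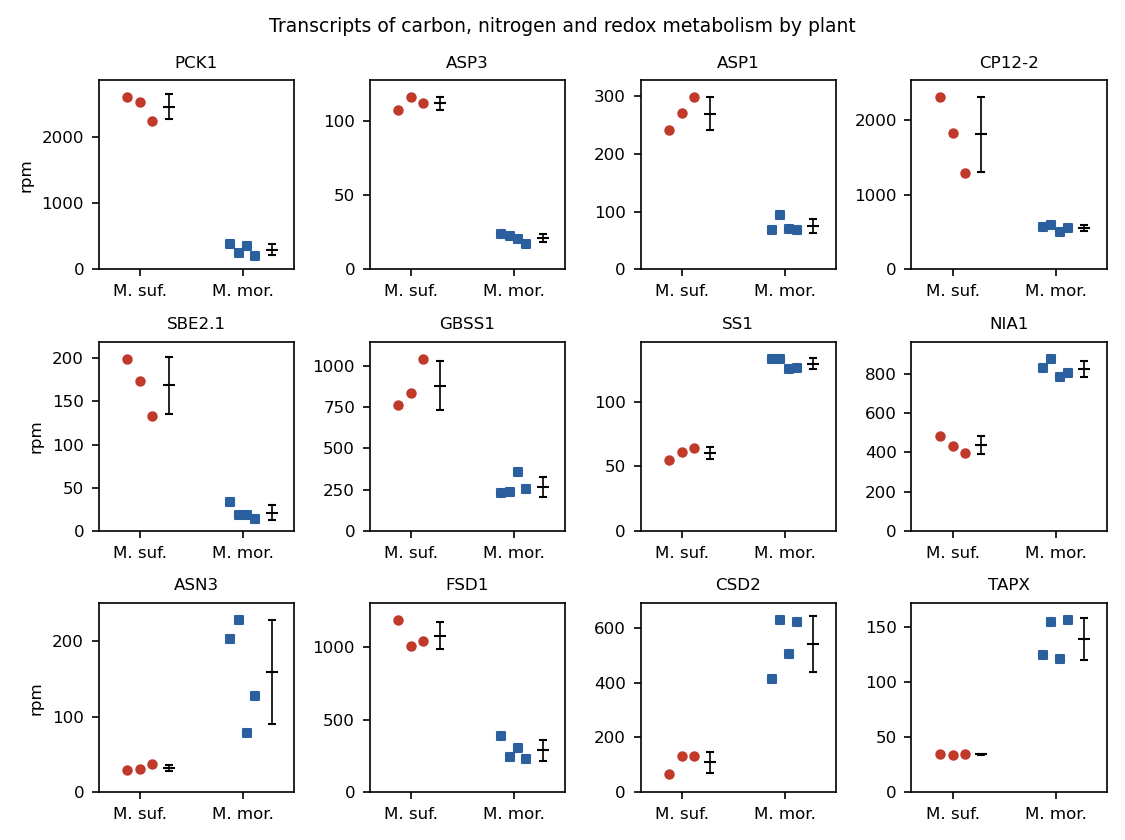
Level in rpm of 12 transcripts of carbon, nitrogen and redox metabolism in each plant, on linear axes from 0, with *M. suffruticosa* (circles, n = 3) left of *M. moricandioides* (squares, n = 4) and black bars for the mean ± SD. The species lie apart in all 12 panels, with PCK1, ASP3, ASP1, CP12-2, SBE2.1, GBSS1 and FSD1 higher in *M. suffruticosa* and SS1, NIA1, ASN3, CSD2 and TAPX lower. The 12 were picked among called transcripts, and uncalled ones of the same lists are not drawn.

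Alternative mitochondrial electron transport lets NADH be oxidized without full ATP yield. Here 3 of 13 tested transcripts were higher and 1 lower (median 0.61), and the sum was 541.8 to 578 rpm in *M. suffruticosa* against 317.3 to 394 rpm in *M. moricandioides*. The alternative oxidase AOX1C (AT3G27620) had 109, 109.9 and 97.7 rpm in *M. suffruticosa*, against 42.9, 28.1, 42.2 and 23.1 rpm in *M. moricandioides* (log2 fold change 1.55 ± 0.23, adjusted p = 0.00035). AOX1B (AT3G22360) had 106, 111 and 106 rpm in *M. suffruticosa*, against 53.6, 30.9, 49.5 and 25.4 rpm in *M. moricandioides* (log2 fold change 1.36 ± 0.25, adjusted p = 0.0014). These are similar copies, and their sum, 204 to 221 rpm in *M. suffruticosa* against 48.4 to 96.5 rpm in *M. moricandioides*, did not overlap. UCP1 (AT3G54110), an uncoupling protein of the inner membrane, had 61.5, 67.5 and 78.5 rpm in *M. suffruticosa*, against 15.6, 20.1, 16.6 and 15.4 rpm in *M. moricandioides* (log2 fold change 1.97 ± 0.22, adjusted p = 7.3e-05). NDC1 (AT5G08740), a type II NAD(P)H dehydrogenase, was lower (log2 fold change -0.92 ± 0.23, adjusted p = 0.0088) and lost its call without *M. suffruticosa* plant 6, 7 or 8, *M. moricandioides* plant 6, 12 or 15 or *M. arvensis* plant 12 or 13 (adjusted p up to 0.048). NDA1 (AT1G07180), another of these dehydrogenases, had 138 to 171 rpm in *M. suffruticosa* and 78.3 to 101 rpm in *M. moricandioides* (adjusted p = 0.064). Omitting 1 plant gave 0 lower without *M. arvensis* plant 13 and 2 lower without *M. moricandioides* plant 12.

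Antioxidant enzymes included the iron and the copper/zinc superoxide dismutases of the chloroplast, which moved in opposite directions. FSD1 (AT4G25100), the iron enzyme, had 1183, 1006 and 1042 rpm in *M. suffruticosa*, against 385, 240.5, 303 and 231 rpm in *M. moricandioides* (log2 fold change 1.82 ± 0.26, adjusted p = 0.00033). CSD2 (AT2G28190), the copper/zinc enzyme, had 66.6, 132 and 132 rpm in *M. suffruticosa*, against 413, 627, 503 and 622 rpm in *M. moricandioides* (log2 fold change -2.37 ± 0.26, adjusted p = 6.4e-05). Neither overlapped between the species. TAPX (AT1G77490), the thylakoid ascorbate peroxidase that removes the hydrogen peroxide they make, had 34.5, 34.1 and 34.6 rpm in *M. suffruticosa*, against 125, 155, 121 and 156 rpm in *M. moricandioides* (log2 fold change -2.09 ± 0.27, adjusted p = 0.00018). Its stromal counterpart SAPX (AT4G08390) was lower as well (log2 fold change -0.64 ± 0.16, adjusted p = 0.0096), though not without *M. suffruticosa* plant 6, 7 or 8, *M. moricandioides* plant 6, 8 or 15 or *M. arvensis* plant 13 or 15 (adjusted p up to 0.036). Of 17 tested members 1 was higher and 3 were lower in all. The catalases CAT3 (AT1G20620) and CAT2 (AT4G35090) were not called (adjusted p = 0.35 and 0.59). CCS (AT1G12520), which loads copper into CSD2, had 187, 100.1 and 111 rpm in *M. suffruticosa*, against 268, 229, 161 and 174 rpm in *M. moricandioides* (adjusted p = 0.093). The antioxidant list had 5 lower without *M. arvensis* plant 9.

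Starch metabolism held 10 higher and 3 lower of 27 tested transcripts (median 0.66), and its sum was 7490 to 9161 rpm in *M. suffruticosa* against 5331 to 6141 rpm in *M. moricandioides*. Higher members served both synthesis and breakdown. SBE2.1 (AT2G36390), a starch branching enzyme, had 199, 173 and 133 rpm in *M. suffruticosa*, against 33.9, 18.1, 18.4 and 13.6 rpm in *M. moricandioides* (log2 fold change 2.94 ± 0.31, adjusted p = 5.2e-05). GBSS1 (AT1G32900), which makes amylose, had 760.1, 836 and 1041 rpm in *M. suffruticosa*, against 228, 233, 355 and 251 rpm in *M. moricandioides* (log2 fold change 1.64 ± 0.25, adjusted p = 0.00047). GPT2 (AT1G61800), which imports glucose 6-phosphate into plastids, had 103, 122 and 49.1 rpm in *M. suffruticosa*, against 7.01, 24.2, 5.43 and 13.9 rpm in *M. moricandioides* (log2 fold change 2.79 ± 0.42, adjusted p = 0.00044). The debranching enzyme subunit ISA2 (AT1G03310) had 203, 212 and 72.5 rpm in *M. suffruticosa*, against 42.6, 37.7, 32.6 and 25.1 rpm in *M. moricandioides* (log2 fold change 2.15 ± 0.30, adjusted p = 0.00030). Each was above the whole C3 range in all *M. suffruticosa* plants, with plant 8 lowest for GPT2 and ISA2. APL4 (1.84), a subunit of the enzyme that makes ADP-glucose, and starch synthase SS2 (1.52) completed the higher synthesis transcripts. On the side of breakdown, phosphoglucan, water dikinase PWD (1.78), the phosphatase SEX4 (0.91) and the disproportionating enzymes DPE1 (1.14) and DPE2 (1.25) were higher on the log2 scale.

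Lower were starch synthase SS1 (AT5G24300) with 55.2, 61.4 and 64.2 rpm in *M. suffruticosa*, against 134, 133, 126 and 126 rpm in *M. moricandioides* (log2 fold change -1.18 ± 0.20, adjusted p = 0.0011), the debranching enzyme ISA1 (AT2G39930; log2 fold change -0.97 ± 0.21, adjusted p = 0.0047) and plastid phosphoglucomutase PGM1 (AT5G51820; log2 fold change -0.76 ± 0.17, adjusted p = 0.0051). ISA1 lost its call without *M. suffruticosa* plant 6 or 7 or *M. moricandioides* plant 6 or 8 (adjusted p up to 0.029) and PGM1 without *M. suffruticosa* plant 6 or 7 or *M. moricandioides* plant 6, 8 or 12 (adjusted p up to 0.030). The summed level of ISA1 and ISA2 overlapped, at 144.6 to 265.3 rpm in *M. suffruticosa* and 117.1 to 174.5 rpm in *M. moricandioides*. The triose phosphate translocator TPT (AT5G46110), which exports carbon by day, had 2683 to 3257 rpm in *M. suffruticosa* and 1919 to 2581 rpm in *M. moricandioides* (adjusted p = 0.39). The starch list had 1 lower without *M. moricandioides* plant 6. None of 13 tested transcripts of sucrose metabolism and transport was called, with a median of 0.06. Among them cytosolic fructose bisphosphatase cFBP (AT1G43670) had 566, 480.3 and 249 rpm in *M. suffruticosa*, against 595, 566, 554 and 660.1 rpm in *M. moricandioides* and the sucrose exporter SWEET11 (AT3G48740) 216 to 369 rpm in *M. suffruticosa* and 230.5 to 434 rpm in *M. moricandioides*.

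Glucosinolates are the sulfur-rich defence compounds of Brassicaceae. In the indole branch 5 of 8 tested synthesis transcripts were higher and 0 lower (median 1.66), and the sum was 1707 to 1871 rpm in *M. suffruticosa* against 365 to 702.4 rpm in *M. moricandioides*. CYP83B1 (AT4G31500), which commits indole aldoxime to the pathway, had 202, 190.3 and 152 rpm in *M. suffruticosa*, against 8.68, 7.01, 10.6 and 8.34 rpm in *M. moricandioides* (log2 fold change 4.3 ± 0.52, adjusted p = 0.00012). MYB51 (AT1G18570), the transcription factor that turns the branch on, had 27.8, 25.6 and 40.1 rpm in *M. suffruticosa*, against 3.4, 3.43, 2.46 and 1.01 rpm in *M. moricandioides* (log2 fold change 3.55 ± 0.37, adjusted p = 5.0e-05). GSTF9 (AT2G30860), a glutathione transferase of the pathway, had 1227, 1163 and 1188 rpm in *M. suffruticosa*, against 375, 295, 466 and 256 rpm in *M. moricandioides* (log2 fold change 1.7 ± 0.21, adjusted p = 0.00012). None of the *M. suffruticosa* plants overlapped with the C3 plants in these transcripts. GSTF9 made up most of the summed level of the list in every plant of both species. CYP79B3 (AT2G22330), the first step from tryptophan, had 7.92 to 11.5 rpm in *M. suffruticosa* and 0.972 to 2.42 rpm in *M. moricandioides* (log2 fold change 2.56 ± 0.64, adjusted p = 0.0092), a call lost without *M. suffruticosa* plant 6, 7 or 8, *M. moricandioides* plant 6, 8, 12 or 15 or *M. arvensis* plant 13 (adjusted p up to 0.034). CYP81F2 (AT5G57220), which modifies the indole ring, had 13.8 to 20.5 rpm in *M. suffruticosa* and 2.94 to 9.85 rpm in *M. moricandioides* (log2 fold change 1.62). SUR1 (AT2G20610), shared by both branches, had 172 to 275 rpm in *M. suffruticosa* and 50.9 to 127 rpm in *M. moricandioides* and missed the threshold (adjusted p = 0.028). Between 3 and 5 members were higher when single plants were left out, the fewest without *M. moricandioides* plant 15.

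The aliphatic branch, which starts from methionine, had 1 of 14 tested members called, the sulfotransferase SOT17 (AT1G18590) with 115, 106 and 56.1 rpm in *M. suffruticosa*, against 30.4, 19.3, 33 and 13.1 rpm in *M. moricandioides* (log2 fold change 1.86 ± 0.32, adjusted p = 0.00097). CYP83A1 (AT4G13770), the counterpart of CYP83B1, and MAM1 (AT5G23010), which lengthens the side chain, had log2 fold changes of 0.51 and 0.09 (adjusted p = 0.20 and 0.88). The myrosinase TGG2 (AT5G25980) and the specifier protein ESP (AT1G54040), which act when tissue is broken, were not called (adjusted p = 0.99 and 0.56). Among 21 tested transcripts of sulfur assimilation and starvation 3 were higher and 0 lower (median 0.73), and all 3 are sulfate transporters. SULTR4;1 (AT5G13550), which empties the vacuole, had 149, 159 and 117 rpm in *M. suffruticosa*, against 62.6, 29.4, 58.6 and 18.23 rpm in *M. moricandioides* (log2 fold change 1.67 ± 0.33, adjusted p = 0.0026), and its copy SULTR4;2 (AT3G12520) 7.64 to 11.7 rpm in *M. suffruticosa* and 2.45 to 5.58 rpm in *M. moricandioides* (log2 fold change 1.38 ± 0.31, adjusted p = 0.0048). SULTR2;1 (AT5G10180), of the vascular tissue, had 53.6 to 82.5 rpm in *M. suffruticosa* and 18 to 38.4 rpm in *M. moricandioides* (log2 fold change 1.27 ± 0.29, adjusted p = 0.0061). SULTR4;1 lost its call without *M. suffruticosa* plant 6 or 7 (adjusted p up to 0.012), SULTR4;2 without *M. suffruticosa* plant 6 or 7 or *M. moricandioides* plant 6, 8 or 15 (adjusted p up to 0.023) and SULTR2;1 without *M. suffruticosa* plant 6, 7 or 8, *M. moricandioides* plant 6, 12 or 15 or *M. arvensis* plant 15 (adjusted p up to 0.029). Sulfite reductase SIR (AT5G04590) and APR2 (AT1G62180), the reductase that sets the flux, had adjusted p-values of 0.019 and 0.20. In the sulfur list there were 0 higher without *M. suffruticosa* plant 6 and 5 higher without *M. moricandioides* plant 12.

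Metal homeostasis transcripts were called in both directions. Of 26 tested transcripts 8 were higher and 3 lower (median 0.55). FER1 (AT5G01600), the main leaf ferritin, which stores iron, had 46.7, 83.5 and 43.9 rpm in *M. suffruticosa*, against 8.06, 7.67, 16 and 11.8 rpm in *M. moricandioides* (log2 fold change 2.31 ± 0.36, adjusted p = 0.00060), and FER4 (AT2G40300) 96.2 to 177 rpm in *M. suffruticosa* and 68.6 to 84.9 rpm in *M. moricandioides* (0.83 on the log2 scale). The zinc transporter ZIP4 (AT1G10970), induced by low zinc in Arabidopsis, had 18.9, 22.6 and 9.83 rpm in *M. suffruticosa*, against 4.51, 2.45, 2.83 and 2.42 rpm in *M. moricandioides* (log2 fold change 2.4 ± 0.27, adjusted p = 7.3e-05). ZIP9 (AT4G33020) had 31 reads in *M. suffruticosa* against 2 in *M. moricandioides*, a ratio of 21.8 (5.56 to 188). Nicotianamine, a metal chelator, is made by NAS1 (1.6) and NAS3 (1.95) and carried with metals by YSL1 (2.21), and all 3 were higher, as was the citrate transporter FRD3 (1.51). On the lower side, OPT3 (AT4G16370), which moves iron into the phloem, had 63.2, 67.1 and 65.9 rpm in *M. suffruticosa*, against 187, 146, 140.4 and 179 rpm in *M. moricandioides* (log2 fold change -1.39 ± 0.15, adjusted p = 5.5e-05). The regulator of iron deficiency bHLH101 (AT5G04150) had 0 reads in *M. suffruticosa* and 142 reads in *M. moricandioides*, at least 33.6-fold lower, with 0.652 to 4.57 rpm in single C3 plants. Its relative bHLH38 (AT3G56970) had 1 read in the *M. suffruticosa* plants and 63 in the *M. moricandioides* plants, a C3 level 44.7 times as high (7.74 to 1790), and was not tested. Between 5 and 8 members were higher when single plants were left out, the fewest without *M. suffruticosa* plant 6.

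Clock and light responses differed in single members. RVE2 (AT5G37260), a MYB-like protein close to the central clock proteins, had 353 reads in *M. suffruticosa* against 3 in *M. moricandioides*, a ratio of 166 (56.3 to 808), with 8.1 to 9.63 rpm in *M. suffruticosa* and 0 to 0.0816 rpm in *M. moricandioides*. The evening gene ELF4 (AT2G40080) had 5.67, 4.95 and 2.37 rpm in *M. suffruticosa*, against 0.834, 0.489, 0.58 and 0.202 rpm in *M. moricandioides* (log2 fold change 2.95 ± 0.44, adjusted p = 0.00042). PRR3 (AT5G60100), a pseudo-response regulator, was higher with a smaller change (log2 fold change 0.87 ± 0.19, adjusted p = 0.0050) that was not called without *M. suffruticosa* plant 6 or 7 or *M. moricandioides* plant 6 or 15 (adjusted p up to 0.025). The other 17 of 20 tested clock transcripts were not called, among them GRP7 (AT2G21660; adjusted p = 0.64) and AT3G54500, which the files do not describe, with 143, 146 and 122 rpm in *M. suffruticosa*, against 374, 322, 136 and 349.8 rpm in *M. moricandioides* (log2 fold change -1.17 ± 0.31, adjusted p = 0.012), which passed by DESeq2, by the exact test of edgeR and without *M. moricandioides* plant 12 (adjusted p = 0.00105) or *M. arvensis* plant 9 (0.00953).

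Of 27 photoreceptor and light signalling transcripts 2 were higher and 3 lower (median 0.00). The blue-light receptor CRY2 (AT1G04400) had 123 to 151 rpm in *M. suffruticosa* and 58.2 to 71.2 rpm in *M. moricandioides* (log2 fold change 1.03 ± 0.22, adjusted p = 0.0037) and PHOT2 (AT5G58140), the phototropin of strong light, 426 to 490.2 rpm in *M. suffruticosa* and 266 to 322 rpm in *M. moricandioides* (log2 fold change 0.57 ± 0.15, adjusted p = 0.010). PHOT1 (AT3G45780), the phototropin of weak light, was lower with 60.9 to 95.8 rpm in *M. suffruticosa* and 112 to 168 rpm in *M. moricandioides* (log2 fold change -0.84 ± 0.17, adjusted p = 0.0031), and the sum of the phototropins overlapped (486.7 to 586 rpm in *M. suffruticosa*, 378.3 to 489.6 rpm in *M. moricandioides*). SIG2 (AT1G08540), a plastid sigma factor, was lower (log2 fold change -0.62 ± 0.16, adjusted p = 0.0096), and CHUP1 (AT3G25690), which anchors chloroplasts for their movement, was not called (adjusted p = 0.36). The calls were lost for CRY2 without *M. suffruticosa* plant 6 or 8 or *M. moricandioides* plant 6, 8 or 15 (adjusted p up to 0.016), for PHOT2 without *M. suffruticosa* plant 6, 7 or 8, *M. moricandioides* plant 6, 8, 12 or 15 or *M. arvensis* plant 13 or 15 (adjusted p up to 0.038), for PHOT1 without *M. suffruticosa* plant 6 or 8 (adjusted p up to 0.013) and for SIG2 without *M. suffruticosa* plant 6, 7 or 8, *M. moricandioides* plant 6, 8, 12 or 15 or *M. arvensis* plant 13 or 15 (adjusted p up to 0.047). Of these transcripts there were 0 higher without *M. moricandioides* plant 15 and 1 lower without *M. suffruticosa* plant 6.

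Transcripts that Arabidopsis induces in the dark or under sugar starvation did not move together, with 3 of 17 tested members higher and 2 lower. SEN1 (AT4G35770) had 21.3, 19.5 and 45.7 rpm in *M. suffruticosa*, against 0.208, 0.0816, 0.217 and 0.269 rpm in *M. moricandioides* (log2 fold change 7.06 ± 1.06, adjusted p = 0.00043). TPS9 (AT1G23870), a trehalose-phosphate synthase-like protein, had 78.3, 84.3 and 60.9 rpm in *M. suffruticosa*, against 25.8, 29.6, 27.1 and 23.1 rpm in *M. moricandioides* (log2 fold change 1.42 ± 0.14, adjusted p = 3.0e-05). With ASN1, described above with nitrogen, these were the higher ones. The transcription factor bZIP1 (AT5G49450), which acts under low sugar, had 0.708, 0.636 and 0.182 rpm in *M. suffruticosa*, against 17.3, 20.6, 16.8 and 23.61 rpm in *M. moricandioides* (log2 fold change -5.28 ± 0.83, adjusted p = 0.00057), and DIN10 (AT5G20250), of the raffinose synthase family, 16.4, 16.9 and 9.56 rpm in *M. suffruticosa*, against 119, 73.7, 81.2 and 68.2 rpm in *M. moricandioides* (log2 fold change -2.66 ± 0.38, adjusted p = 0.00031). Of 13 transcripts of leaf senescence 3 were higher and 0 lower. The NAC factor NAP (AT1G69490), which promotes senescence, had 5.52, 3.75 and 1.36 rpm in *M. suffruticosa*, against 0.208, 0.489, 0.435 and 0.807 rpm in *M. moricandioides* (log2 fold change 2.76 ± 0.45, adjusted p = 0.00075), SAG20 (AT3G10985) 64.1, 59.9 and 36 rpm in *M. suffruticosa*, against 7.92, 6.04, 18.7 and 10.6 rpm in *M. moricandioides* (log2 fold change 2.19 ± 0.34, adjusted p = 0.00058), and AT4G11910, which the files do not describe, 10.7 to 16.4 rpm in *M. suffruticosa* and 3.83 to 5.94 rpm in *M. moricandioides* (log2 fold change 1.49 ± 0.26, adjusted p = 0.0010). NYC1 (AT4G13250), a chlorophyll b reductase, and the chlorophyllase CLH1 (AT1G19670) were not called (adjusted p = 0.83 and 0.014). CLH1 plants did not overlap, with 26.6, 21.4 and 3.82 rpm in *M. suffruticosa*, against 186, 169, 202 and 136 rpm in *M. moricandioides*, and it passed without *M. arvensis* plant 9 (adjusted p = 0.0016) or 12 (0.00479). The senescence list had 2 lower without *M. arvensis* plant 9.

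Abscisic acid (ABA) and drought transcripts were a mixture. Of 15 tested ABA transcripts 3 were higher and 0 lower. Among them were the phosphatases ABI1 (AT4G26080) with 91.1, 89.9 and 84.9 rpm in *M. suffruticosa*, against 42.5, 29.6, 36.9 and 31.6 rpm in *M. moricandioides* (log2 fold change 1.26 ± 0.16, adjusted p = 0.00018) and PP2CA (AT3G11410) with 159.7, 156 and 119 rpm in *M. suffruticosa*, against 79.4, 50.7, 56.1 and 44.2 rpm in *M. moricandioides* (log2 fold change 1.25 ± 0.21, adjusted p = 0.00098), which hold back ABA signalling and are themselves induced by the hormone. ABF3 (AT4G34000), a transcription factor of the response, was higher by less (log2 fold change 0.83 ± 0.20, adjusted p = 0.0076) and lost its call without *M. suffruticosa* plant 6, 7 or 8, *M. moricandioides* plant 6, 8, 12 or 15 or *M. arvensis* plant 13 (adjusted p up to 0.031), and the receptor PYR1 (AT4G17870) was not called (adjusted p = 0.18). Of 13 transcripts of cold and drought protection 3 were higher and 3 lower. Higher were the dehydrin COR47 (AT1G20440) with 509, 461 and 311 rpm in *M. suffruticosa*, against 152, 155, 152 and 119.8 rpm in *M. moricandioides* (log2 fold change 1.48 ± 0.27, adjusted p = 0.0015), P5CS1 (AT2G39800), which makes proline, with 462, 519.6 and 343 rpm in *M. suffruticosa*, against 125, 156, 111 and 131 rpm in *M. moricandioides* (log2 fold change 1.68 ± 0.42, adjusted p = 0.0096), and GOLS3 (AT1G09350), a galactinol synthase (log2 fold change 2.79 ± 0.61, adjusted p = 0.0044). Lower were KIN1 (AT5G15960) with 15.5, 5.3 and 10.0 rpm in *M. suffruticosa*, against 244, 204, 339 and 137 rpm in *M. moricandioides* (log2 fold change -4.56 ± 0.62, adjusted p = 0.00023), the galactinol synthase GOLS1 (AT2G47180) with 4.39, 5.66 and 3.28 rpm in *M. suffruticosa*, against 19.7, 20.3, 36.9 and 32.4 rpm in *M. moricandioides* (log2 fold change -2.72 ± 0.32, adjusted p = 0.00011) and the membrane protein COR413PM1 (AT2G15970) with 48.3, 51 and 35.4 rpm in *M. suffruticosa*, against 197, 136, 186 and 148 rpm in *M. moricandioides* (log2 fold change -1.98 ± 0.24, adjusted p = 0.00013). P5CS1 lost its call without *M. suffruticosa* plant 6, 7 or 8, *M. moricandioides* plant 6, 8, 12 or 15 or *M. arvensis* plant 12 (adjusted p up to 0.035) and GOLS3 without *M. suffruticosa* plant 6 or 7 or *M. moricandioides* plant 6, 8, 12 or 15 (adjusted p up to 0.018), so that this list had 1 higher without *M. moricandioides* plant 12. Aquaporins, the water channels, had 2 lower and 0 higher of 11 tested, and their sum was 4728 to 5359 rpm in *M. suffruticosa* against 6666 to 7283 rpm in *M. moricandioides*. TIP1;1 (AT2G36830), of the vacuole membrane, had 332, 420.0 and 345 rpm in *M. suffruticosa*, against 891, 852, 794 and 791 rpm in *M. moricandioides* (log2 fold change -1.26 ± 0.28, adjusted p = 0.0050), and PIP2;6 (AT2G39010), of the plasma membrane, 109 to 117 rpm in *M. suffruticosa* and 164 to 298 rpm in *M. moricandioides* (log2 fold change -1.04 ± 0.20, adjusted p = 0.0022). TIP1;1 lost its call without *M. suffruticosa* plant 6, 7 or 8 or *M. moricandioides* plant 6 or 15 (adjusted p up to 0.028) and PIP2;6 without *M. suffruticosa* plant 6 or 7 (adjusted p up to 0.015). TIP1;2 (AT3G26520) and PIP1;2 (AT2G45960) were not called (adjusted p = 0.023 and 0.68). Aquaporins had 0 lower without *M. suffruticosa* plant 6, and ABA transcripts 1 lower without *M. arvensis* plant 9.

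**Figure D5:**
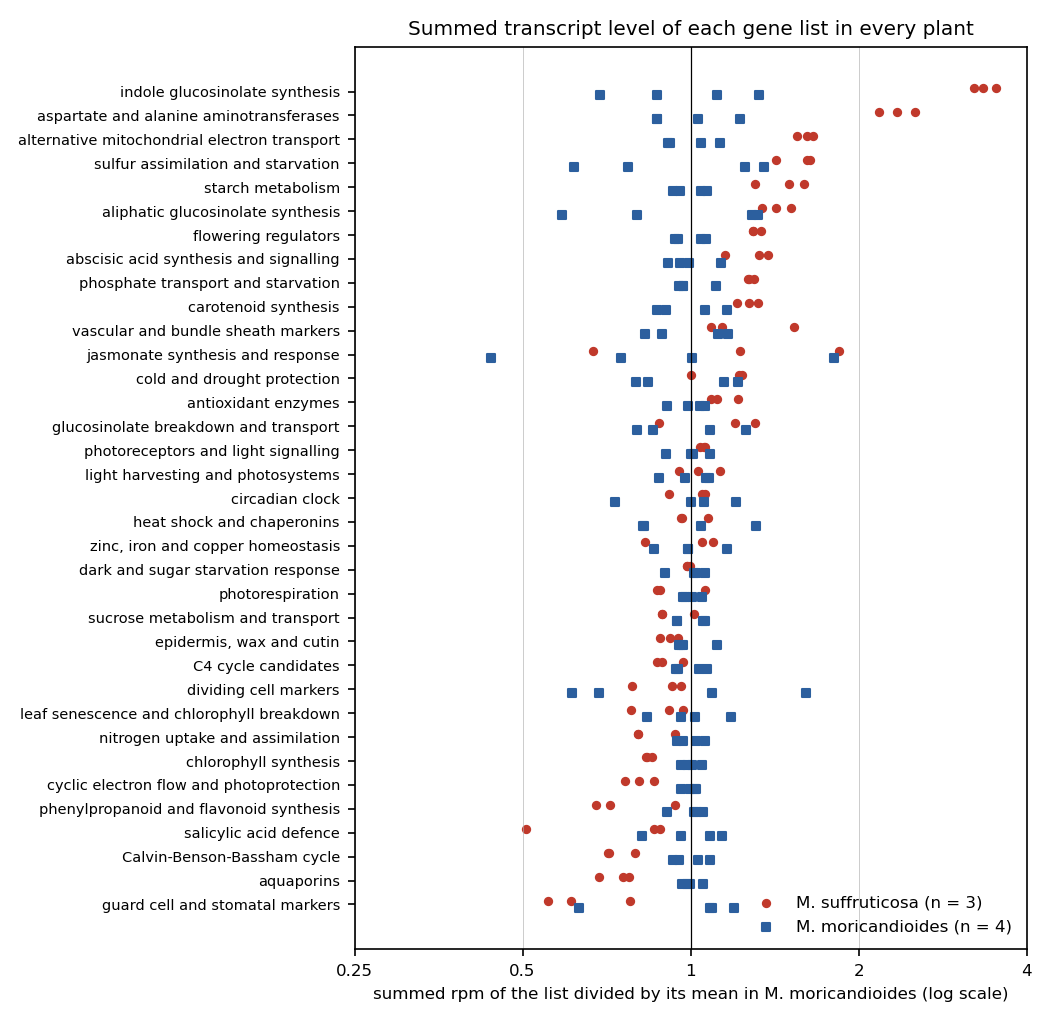
Summed level of each gene list in every plant divided by the mean of the *M. moricandioides* plants, on a log axis, with circles for the 3 *M. suffruticosa* and squares for the 4 *M. moricandioides* plants. Indole glucosinolate synthesis (3.36 times, a sum made up mostly of GSTF9) and aminotransferases (2.35 times) lie farthest to the right. The CBB cycle (0.74 times) and aquaporins (0.739 times) are to the left of all C3 plants.

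Heat shock and chaperonin transcripts had 4 of 19 tested members higher and 2 lower. The small heat shock protein HSP17.6A (AT1G59860) had 15, 14.1 and 13.7 rpm in *M. suffruticosa*, against 1.25, 1.3, 1.81 and 0.875 rpm in *M. moricandioides* (log2 fold change 3.36 ± 0.27, adjusted p = 9.2e-06), HSP17.4 (AT3G46230) 5.17 to 6.01 rpm in *M. suffruticosa* and 1.46 to 2.68 rpm in *M. moricandioides* (log2 fold change 1.4 ± 0.30, adjusted p = 0.0039), and HSP70-4 was higher by 0.75 on the log2 scale. The mitochondrial chaperonin copies went apart, with HSP60-2 (AT2G33210) at 100.1, 125 and 96.1 rpm in *M. suffruticosa*, against 32.4, 45.8, 25.1 and 29.7 rpm in *M. moricandioides* (log2 fold change 1.62 ± 0.22, adjusted p = 0.00022) and HSP60 (AT3G23990) at 1.56, 1.34 and 1.09 rpm in *M. suffruticosa*, against 38.2, 57.1, 29.5 and 43.4 rpm in *M. moricandioides* (log2 fold change -5.03 ± 0.31, adjusted p = 1.4e-06). Their sum overlapped, at 97.2 to 126.6 rpm in *M. suffruticosa* and 54.55 to 102.9 rpm in *M. moricandioides*. The coactivator MBF1C (AT3G24500) was lower (log2 fold change -1.33 ± 0.26, adjusted p = 0.0023). HSP17.4 lost its call without *M. suffruticosa* plant 6, 7 or 8 or *M. moricandioides* plant 6 or 15 (adjusted p up to 0.014) and MBF1C without *M. suffruticosa* plant 6 or 7 (adjusted p up to 0.017). The chloroplast chaperonins CPN60A1 (AT2G28000) and CPN60B1 (AT1G55490) had adjusted p-values of 0.011 and 0.76, and CPN60A1 passed without *M. moricandioides* plant 6 (0.0083) or *M. arvensis* plant 9 (0.00729). This list had 2 higher without *M. suffruticosa* plant 7 and 1 lower without *M. suffruticosa* plant 6.

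Defence hormone lists had calls in both directions, to be read beside the 18.9% called of all transcripts. In the jasmonate list 2 of 19 tested members were higher and 1 lower. JAZ9 (AT1G70700), a repressor of the response, had 242 to 365 rpm in *M. suffruticosa* and 109 to 199.7 rpm in *M. moricandioides* (log2 fold change 1.08 ± 0.26, adjusted p = 0.0070) and lost its call without *M. suffruticosa* plant 6 or 7, *M. moricandioides* plant 8, 12 or 15 or *M. arvensis* plant 13 or 15 (adjusted p up to 0.031). JAR1 (AT2G46370), which makes the active hormone, had 42.6, 42.5 and 29.2 rpm in *M. suffruticosa*, against 87.1, 81.4, 87.7 and 65.7 rpm in *M. moricandioides* (log2 fold change -1.16 ± 0.16, adjusted p = 0.00030). The other higher member was DOX1. VSP2 (AT5G24770) and LOX2 (AT3G45140), both induced by jasmonate, ranged widely within the species, at 2368 to 8290 rpm in *M. suffruticosa* and 1688 to 6515 rpm in *M. moricandioides* for VSP2 and 126 to 331 rpm in *M. suffruticosa* and 142 to 3017 rpm in *M. moricandioides* for LOX2 (adjusted p = 0.82 and 0.055). In the salicylic acid list 2 of 10 were higher and 1 lower. SAG101 (AT5G14930), of the immune complex with EDS1, had 7.29, 6.79 and 5.37 rpm in *M. suffruticosa*, against 1.81, 2.04, 1.01 and 1.48 rpm in *M. moricandioides* (log2 fold change 1.96 ± 0.23, adjusted p = 9.5e-05). PAD3 (AT3G26830), which makes the phytoalexin camalexin in Arabidopsis, had 82.9, 78.8 and 28.1 rpm in *M. suffruticosa*, against 31, 17.3, 26.9 and 17.3 rpm in *M. moricandioides* (log2 fold change 1.36 ± 0.32, adjusted p = 0.0074), a call lost without *M. suffruticosa* plant 6 or 7, *M. moricandioides* plant 6, 8, 12 or 15 or *M. arvensis* plant 12, 13 or 15 (adjusted p up to 0.042). PBS3 (AT5G13320), an enzyme of salicylic acid synthesis, had 52, 53.7 and 37.9 rpm in *M. suffruticosa*, against 153, 199, 122 and 168 rpm in *M. moricandioides* (log2 fold change -1.82 ± 0.18, adjusted p = 3.2e-05). In the phosphate list none of 21 was called, with SQD2 (AT5G01220), which makes sulfolipid, at an adjusted p of 0.016 and PHT4;1 (AT2G29650) at 0.52. Omission of 1 plant gave 1 higher without *M. arvensis* plant 13 for jasmonate, 1 higher without *M. arvensis* plant 12 and 2 lower without *M. moricandioides* plant 6 for salicylic acid and 1 lower without *M. arvensis* plant 9 for phosphate.

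In phenylpropanoid and flavonoid synthesis 1 of 19 tested members was higher and 4 were lower, and the median of -0.75 was the lowest of the lists. PAL1 (AT2G37040), the entry enzyme, had 15.4, 18.8 and 36.9 rpm in *M. suffruticosa*, against 111, 118, 114 and 96.3 rpm in *M. moricandioides* (log2 fold change -2.27 ± 0.36, adjusted p = 0.00062). UGT78D1 (AT1G30530), a flavonol rhamnosyltransferase, had 4.46, 3.61 and 3.64 rpm in *M. suffruticosa*, against 16.5, 19.9, 20.3 and 19.4 rpm in *M. moricandioides* (log2 fold change -2.36 ± 0.35, adjusted p = 0.00042). The lignin enzyme CAD5 (AT4G34230) had 15.9 to 28.4 rpm in *M. suffruticosa* and 48.2 to 98.8 rpm in *M. moricandioides* (-1.8 on the log2 scale), and MYB75 (AT1G56650), the regulator of anthocyanin, 0.778 to 2.09 rpm in *M. suffruticosa* and 3.55 to 7.5 rpm in *M. moricandioides* (log2 fold change -2.23 ± 0.54, adjusted p = 0.0075), lost without *M. suffruticosa* plant 6 or 7 or *M. moricandioides* plant 6, 8 or 15 (adjusted p up to 0.043). In contrast CCR1 (AT1G15950), cinnamoyl-CoA reductase of the lignin branch, had 142, 147 and 190.1 rpm in *M. suffruticosa*, against 47.5, 44.7, 32.6 and 38.5 rpm in *M. moricandioides* (log2 fold change 1.91 ± 0.19, adjusted p = 3.6e-05). FAH1 (AT4G36220) and CCOAOMT1 (AT4G34050) of the same branch were not called (adjusted p = 0.84 and 0.33), and the list had 2 lower without *M. suffruticosa* plant 6.

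Among flowering regulators, in plants that had not flowered, 2 of 14 tested members were higher and 1 lower. The repressors TOE1 (AT2G28550) and FLM (AT1G77080) were higher (log2 fold change 1.14 ± 0.22, adjusted p = 0.0024, and log2 fold change 0.93 ± 0.20, adjusted p = 0.0044), and the repressor SVP (AT2G22540) lower (log2 fold change -0.91 ± 0.21, adjusted p = 0.0062). TOE1 lost its call without *M. suffruticosa* plant 6 or 7 (adjusted p up to 0.015), FLM without *M. suffruticosa* plant 6, 7 or 8 or *M. moricandioides* plant 6, 8 or 12 (adjusted p up to 0.018) and SVP without *M. suffruticosa* plant 6, 7 or 8 or *M. moricandioides* plant 8 or 15 (adjusted p up to 0.031). FLC (AT5G10140) had 199, 181 and 219 rpm in *M. suffruticosa*, against 86.3, 60.9, 108 and 80.4 rpm in *M. moricandioides* (log2 fold change 1.17 ± 0.31, adjusted p = 0.012), with no overlap, and passed without *M. arvensis* plant 9 (0.00884) or 15 (0.00915). CDF3 (AT3G47500) was not called (adjusted p = 0.28). The regulators had 0 higher without *M. suffruticosa* plant 6 and 0 lower without *M. moricandioides* plant 15.

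Markers of cell types were followed because the glycine shuttle rests on the bundle sheath. Of 22 listed vascular and bundle sheath markers 19 were tested, of which 4 were higher and 0 lower (median 0.03), and the sum overlapped, with 1386 to 1957 rpm in *M. suffruticosa* and 1056 to 1488 rpm in *M. moricandioides*. SCL23 (AT5G41920), a GRAS factor active in the bundle sheath of Arabidopsis, had 14.1, 15.8 and 7.55 rpm in *M. suffruticosa*, against 4.03, 2.85, 4.13 and 2.15 rpm in *M. moricandioides* (log2 fold change 1.84 ± 0.27, adjusted p = 0.00039). The phloem lectin PP2-A1 (AT4G19840) had 481, 451 and 486 rpm in *M. suffruticosa*, against 161, 63.4, 194 and 115 rpm in *M. moricandioides* (log2 fold change 1.74 ± 0.33, adjusted p = 0.0021). APL (AT1G79430), which specifies phloem, had 25.9 to 38.7 rpm in *M. suffruticosa* and 14.3 to 19.8 rpm in *M. moricandioides* (log2 fold change 0.79), and SULTR2;1 was the fourth. Defining transcripts of the same cells were not called, among them SCR (log2 fold change -0.18, adjusted p = 0.49), SHR (log2 fold change 0.02, adjusted p = 0.95), the companion cell transporter SUC2 (log2 fold change 0.16, adjusted p = 0.76) and the bundle sheath sulfate transporter SULTR2;2 (log2 fold change 0.09, adjusted p = 0.84). PHB, SEOR1 and SWEET12 were listed at 0. The vascular list had 2 higher without *M. arvensis* plant 15 and 2 lower without *M. suffruticosa* plant 8.

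None of 14 tested of 19 guard cell and stomatal markers was called (262.7 to 369.8 rpm in *M. suffruticosa* and 299.2 to 565.7 rpm in *M. moricandioides* in sum). SCRM, KAT1 and CYP86A2 were listed at 0. GC1 (AT1G22690) had 164, 232 and 107 rpm in *M. suffruticosa*, against 382, 383, 176 and 450.2 rpm in *M. moricandioides* (adjusted p = 0.018) and passed without *M. moricandioides* plant 12 (0.00386), and OST1 (AT4G33950), the kinase of stomatal closure, had 29.2 to 31.8 rpm in *M. suffruticosa* and 27.3 to 34.5 rpm in *M. moricandioides*. The guard cell list had 1 higher without *M. arvensis* plant 9 and 1 lower without *M. suffruticosa* plant 8. Of 33 epidermis, wax and cutin markers 26 were tested and 1 was lower, with a sum of 5420 to 5844 rpm in *M. suffruticosa* and 5882 to 6853 rpm in *M. moricandioides* and CER1, CER6, KCR1, MYB96, ATML1, GPAT8 and LTP1 listed at 0. The lower one was MAH1 (AT1G57750), the P450 that makes secondary alcohols of wax, with 8.14, 12.3 and 42.3 rpm in *M. suffruticosa*, against 251, 221, 189 and 226 rpm in *M. moricandioides* (log2 fold change -3.45 ± 0.53, adjusted p = 0.00049), where *M. suffruticosa* plant 8 had several times the level of plants 6 and 7. LTP2 (AT2G38530) and LACS1 (AT2G47240) were not called (adjusted p = 0.78 and 0.028), and LACS1 passed without *M. arvensis* plant 9 (0.00214), with 1 higher without *M. suffruticosa* plant 8 and 2 lower without *M. arvensis* plant 9 in this list. None of 16 tested of 20 dividing cell markers was called, at 69.25 to 84.82 rpm in *M. suffruticosa* and 53.97 to 141.8 rpm in *M. moricandioides* in sum, including PCNA1 (AT1G07370; adjusted p = 0.20) and TSO2 (AT3G27060; 0.89), with CYCB1;2, CDKB1;1, CDKB2;1 and PCNA2 listed at 0. What part a different share of cell types has in the other results was not tested.

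Protein families were grouped by words in the gene descriptions, and their counts are read beside 10.1% higher and 8.82% lower over all transcripts. Higher transcripts outnumbered lower ones among F-box proteins (33 higher and 14 lower of 157 tested), which choose targets for ubiquitin ligases, NAC transcription factors (8 and 1 of 38), glutathione S-transferases (8 and 1 of 30), ABC transporters (12 and 3 of 47) and berberine enzymes (5 and 0 of 9). MATE efflux proteins were called in both directions (8 higher and 5 lower of 27). The TIR-type resistance protein CSA1 (AT5G17880) had 32.6, 35.6 and 38.2 rpm in *M. suffruticosa*, against 2.57, 3.43, 3.84 and 2.15 rpm in *M. moricandioides* (log2 fold change 3.49 ± 0.29, adjusted p = 1.1e-05), within a group of 95 disease resistance proteins of which 14 were higher and 12 lower. The amino acid transporter CAT5 (AT2G34960) had 16.2, 16.6 and 17.3 rpm in *M. suffruticosa*, against 0.347, 0.326, 0.29 and 0.202 rpm in *M. moricandioides* (log2 fold change 5.74 ± 0.57, adjusted p = 3.4e-05). The efflux proteins AT2G04040 and AT1G15150 lay at opposite ends, with 14.6 to 23.1 rpm in *M. suffruticosa* and 0.435 to 1.88 rpm in *M. moricandioides* (log2 fold change 4.08 ± 0.39, adjusted p = 2.7e-05), and 3.73 to 13.3 rpm in *M. suffruticosa* and 159 to 183 rpm in *M. moricandioides* (log2 fold change -4.38 ± 0.32, adjusted p = 4.7e-06). Other transcripts at the upper end were UBQ9 (AT5G37640; 3.22), a ubiquitin, UGT71C5 (AT1G07240; 2.68), GSTL1 (AT5G02780; 1.93), MRP9 (AT3G60160; 1.98), SGS3 (AT5G23570; 1.77), which acts in RNA silencing, the receptor-like kinase AT1G50610 (4.45) and the auxin-responsive AT4G17280 (3.47), each with its log2 fold change. Leaving out 1 plant gave, among F-box proteins, 5 lower without *M. suffruticosa* plant 6, among NAC factors 5 higher without *M. moricandioides* plant 15 and 0 lower without *M. suffruticosa* plant 6, among glutathione S-transferases 5 higher without *M. suffruticosa* plant 6, 0 lower without *M. suffruticosa* plant 7 and 2 lower without *M. arvensis* plant 9, among berberine enzymes 2 higher without *M. suffruticosa* plant 7, and among resistance proteins 9 higher without *M. suffruticosa* plant 7 and 7 lower without *M. suffruticosa* plant 6. ABC transporters had 1 lower without *M. moricandioides* plant 15 and MATE proteins 3 lower without *M. suffruticosa* plant 6.

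Lower transcripts outnumbered higher ones in several families of the cell wall and surface, again beside 10.1% higher and 8.82% lower over all transcripts. Of 29 arabinogalactan proteins 1 was higher and 10 were lower (median -0.83), of 32 expansins and xyloglucan transferases 2 and 10, of 71 pectin modifying enzymes 7 and 15, of 46 peroxidases 4 and 10, of 105 extensins and proline-rich proteins 8 and 18, and of 183 receptor-like kinases 9 and 31. Lipid transfer proteins (1 higher and 3 lower of 33) and cellulose synthases (0 and 3 of 22) had few calls. AGP16 (AT2G46330), an arabinogalactan protein, had 8.64, 9.05 and 9.01 rpm in *M. suffruticosa*, against 71, 88.6, 53.2 and 108 rpm in *M. moricandioides* (log2 fold change -3.24 ± 0.23, adjusted p = 4.2e-06). The extensin-like AT2G43150 had 12.3, 7.21 and 8.37 rpm in *M. suffruticosa*, against 117, 107, 67.5 and 177 rpm in *M. moricandioides* (log2 fold change -3.73 ± 0.37, adjusted p = 3.5e-05). GER3 (AT5G20630), a germin of the apoplast, had 20.8, 10.5 and 23.8 rpm in *M. suffruticosa*, against 544, 383, 298 and 327 rpm in *M. moricandioides* (log2 fold change -4.45 ± 0.37, adjusted p = 1.2e-05). In each the *M. suffruticosa* plants lay far below the lowest C3 plant. The peroxidase AT3G32980 (-2.79), XTH8 (AT1G11545; -2.95), the pectin methylesterase PMEPCRA (AT1G11580; -2.83), the receptor-like kinase AT5G62710 (-3.17) and CSLB01 (AT2G32610; -2.0), of the cellulose synthase-like proteins, were at the lower ends of their groups, as their log2 fold changes show. XTR8 (AT3G44990), a xyloglucan transferase, went the other way with 126, 119 and 52.3 rpm in *M. suffruticosa*, against 4.93, 4.81, 5.5 and 2.96 rpm in *M. moricandioides* (log2 fold change 4.36 ± 0.53, adjusted p = 0.00012), as did the pectin lyase-like AT3G09540 (log2 fold change 3.48 ± 0.30, adjusted p = 1.4e-05). With 1 plant left out there were 2 lower without *M. suffruticosa* plant 7 among the pectin modifying enzymes (659 of all 15844 transcripts were then lower), 1 higher without *M. moricandioides* plant 12 and 3 lower without *M. suffruticosa* plant 7 among expansins and xyloglucan transferases, and 2 higher without *M. arvensis* plant 12 and 5 lower without *M. suffruticosa* plant 6 among arabinogalactan proteins. Peroxidases had 4 lower without *M. suffruticosa* plant 6, extensins 4 higher without *M. suffruticosa* plant 6 and 8 lower without *M. suffruticosa* plant 7 and receptor-like kinases 3 higher without *M. suffruticosa* plant 7.

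Of 101 cytochromes P450, 14 were higher and 24 lower, with CYP82G1 (AT3G25180), which makes a volatile terpenoid in Arabidopsis, at 0.455 to 0.99 rpm in *M. suffruticosa* and 1.48 to 17.36 rpm in *M. moricandioides* (log2 fold change -4.03 ± 0.77, adjusted p = 0.0019), a call lost without *M. suffruticosa* plant 6 (adjusted p up to 0.014). The ubiquitin-conjugating enzyme UBC23 (AT2G16920) had 28.7, 27.6 and 26.4 rpm in *M. suffruticosa*, against 707, 637, 59.2 and 472 rpm in *M. moricandioides* (log2 fold change -4.13 ± 0.62, adjusted p = 0.00042), with *M. moricandioides* plant 12 far below the other C3 plants, and within 209 transcripts of proteasome and ubiquitin 23 were higher and 8 lower. Ribosomal proteins (12 higher and 24 lower of 289) and pentatricopeptide proteins (9 and 14 of 218) had calls for 12.5% and 10.6% of their tested members, beside 18.9% of all transcripts. Without 1 plant ribosomal proteins had 5 higher without *M. suffruticosa* plant 6 and 15 lower without *M. suffruticosa* plant 6, pentatricopeptide proteins 1 higher without *M. suffruticosa* plant 7 and 4 lower without *M. suffruticosa* plant 6, proteasome and ubiquitin 13 higher without *M. suffruticosa* plant 6, and WRKY factors 2 higher without *M. suffruticosa* plant 8 and 0 lower without *M. suffruticosa* plant 6. WRKY factors had 0 higher and 4 lower of 37, with WRKY15 (AT2G23320) at 6.58 to 6.93 rpm in *M. suffruticosa* and 15.9 to 17.1 rpm in *M. moricandioides* (log2 fold change -1.35 ± 0.30, adjusted p = 0.0052), a call lost without *M. suffruticosa* plant 6, 7 or 8 or *M. moricandioides* plant 6, 8, 12 or 15 (adjusted p up to 0.026). The chitinase-like AT4G19720 had 1062, 777 and 16.9 rpm in *M. suffruticosa*, against 21.1, 25, 11.4 and 16.9 rpm in *M. moricandioides*. It was called higher (log2 fold change 4.96 ± 1.08, adjusted p = 0.0044), but *M. suffruticosa* plant 8 lay within the C3 range, and the call was lost without *M. suffruticosa* plant 6 or 7 or *M. moricandioides* plant 6, 8, 12 or 15 (adjusted p up to 0.018).

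The annotation terms deposited with the gene models gave 248 categories with at least 20 tested members, while 5076 tested transcripts had none. Their counts are read beside 10.1% higher and 8.82% lower over all transcripts. Places in the chloroplast held more lower than higher transcripts, with 2 higher and 27 lower of 96 for the thylakoid (median -0.36), 18 and 49 of 259 for the stroma and 12 and 51 of 260 for the envelope. These categories share members with the lists of photosynthesis. AT2G39080, a Rossmann-fold protein of the stroma, had 21.7, 18.7 and 20.9 rpm in *M. suffruticosa*, against 123, 118, 96.2 and 96.9 rpm in *M. moricandioides* (log2 fold change -2.47 ± 0.23, adjusted p = 2.6e-05). The carrier AT3G51870 of the envelope had 2.64 to 7.14 rpm in *M. suffruticosa* and 14.9 to 38.7 rpm in *M. moricandioides* (log2 fold change -2.6 ± 0.39, adjusted p = 0.00042). Against the direction, AT1G30360, an early-responsive to dehydration protein also annotated there, had 222, 209 and 189.7 rpm in *M. suffruticosa*, against 44.6, 36.4, 48 and 32.4 rpm in *M. moricandioides* (log2 fold change 2.28 ± 0.25, adjusted p = 6.8e-05). The plant-type cell wall had 8 higher and 28 lower of 129, and the apoplast 6 and 24 of 116. Without 1 plant the thylakoid had 1 higher without *M. arvensis* plant 13 and 14 lower without *M. suffruticosa* plant 7, the stroma 9 higher without *M. suffruticosa* plant 6, 26 lower without *M. suffruticosa* plant 6 and 76 lower without *M. arvensis* plant 9, the envelope 6 higher without *M. suffruticosa* plant 6 and 20 lower without *M. suffruticosa* plant 6, the cell wall 12 lower without *M. suffruticosa* plant 7 and the apoplast 10 higher without *M. arvensis* plant 9 and 12 lower without *M. suffruticosa* plant 6.

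Among further categories, again beside 10.1% higher and 8.82% lower over all transcripts, aminoacylation of tRNA had 2 higher and 9 lower of 31. OVA2 (AT5G49030), the isoleucine tRNA synthetase of organelles, had 52.7, 63.2 and 60.1 rpm in *M. suffruticosa*, against 162, 192, 107 and 106 rpm in *M. moricandioides* (log2 fold change -1.33 ± 0.20, adjusted p = 0.00048), whereas AT4G10320, annotated to the same class, had 219.9, 251 and 267 rpm in *M. suffruticosa*, against 49.3, 58.1, 46.5 and 43.5 rpm in *M. moricandioides* (log2 fold change 2.25 ± 0.15, adjusted p = 2.8e-06). Magnesium ion binding had 9 higher and 2 lower of 35, led by the pyruvate kinase AT3G04050 with 16.7, 15.6 and 5.92 rpm in *M. suffruticosa*, against 1.74, 0.979, 1.09 and 1.41 rpm in *M. moricandioides* (log2 fold change 3.19 ± 0.31, adjusted p = 3.2e-05). Defense response had 30 higher and 14 lower of 165 (median 0.36), between AT1G23120 at the upper end and the resistance protein AT1G61180 (log2 fold change -3.31 ± 0.54, adjusted p = 0.00076) at the lower. Innate immune response had 8 higher and 0 lower of 52, or 15.4% called, beside 18.9% of all transcripts. Its AT5G18350, a TIR-type resistance protein, had 17.1 to 24.6 rpm in *M. suffruticosa* and 4.93 to 9.71 rpm in *M. moricandioides* (log2 fold change 1.43 ± 0.23, adjusted p = 0.00075). Chlorophyll binding had no called member among 21. Leaving 1 plant out gave 1 higher without *M. arvensis* plant 13 and 2 lower without *M. suffruticosa* plant 6 for tRNA aminoacylation, 0 lower without *M. suffruticosa* plant 6 for magnesium ion binding, 8 lower without *M. suffruticosa* plant 6 for defense response and 5 higher without *M. suffruticosa* plant 8 and 1 lower without *M. moricandioides* plant 6 for innate immune response.

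The level in the second intermediate was set beside these values and tested in the same edgeR fit as *M. suffruticosa* minus *M. arvensis*, a contrast in which 3007 transcripts (19.3%) were called at an adjusted p of 0.01 or less. DOX1 had 0.0783, 0.268, 0.372 and 0.345 rpm in *M. arvensis* plants 9, 12, 13 and 15 (log2 difference 10.62, adjusted p = 1.1e-06) and RVE2 0, 0, 0 and 0.0862 rpm (log2 difference 8.26, adjusted p = 1.9e-06), so that both were higher in *M. suffruticosa* than in *M. arvensis* as well. PPC4 had 6.96, 13.9, 6.33 and 5.26 rpm in *M. arvensis* (log2 difference 2.54, adjusted p = 0.00030), GBSS1 399, 355, 319.8 and 344 rpm (log2 difference 1.34, adjusted p = 0.0017) and GPT2 15.3, 24.1, 28.5 and 29.5 rpm (log2 difference 1.97, adjusted p = 0.0033), and all 3 were higher in *M. suffruticosa*. Below *M. arvensis* lay NIA1 with 749, 986, 955 and 1024 rpm in *M. arvensis* (log2 difference -1.03, adjusted p = 0.00026), PNSB1 with 428, 353, 339 and 335 rpm (log2 difference -1.18, adjusted p = 0.0013), DIN10 with 167, 91.1, 304 and 329.8 rpm (log2 difference -3.89, adjusted p = 4.2e-05) and PIP with 22.4, 25.2, 26.4 and 25.8 rpm (log2 difference -5.87, adjusted p = 6.4e-08). For PCK1, at 2168, 2607, 1002 and 1037 rpm in *M. arvensis*, and ASP3, at 132, 111, 120.2 and 127 rpm, *M. suffruticosa* minus *M. arvensis* did not pass (log2 difference 0.51, adjusted p = 0.33, and log2 difference -0.10, adjusted p = 0.67). AOX1C, at 106, 97.5, 94.8 and 102 rpm (log2 difference 0.10, adjusted p = 0.76), and CP12-2, at 2703, 1623, 1834 and 1617 rpm (log2 difference -0.12, adjusted p = 0.77), missed the threshold likewise.

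*M. suffruticosa* plants differed among themselves in some of these transcripts. Among the 2950 called transcripts 316 ranged more than 2-fold between the 3 plants on the scale of log2(rpm + 0.5), and in 311 of these plant 8 was the highest or lowest. Besides AT4G19720 and MAH1, examples among the transcripts above were ISA2, GPT2 and XTR8, whose lowest plant was 8, and AT1G50610 with 9.98, 10.2 and 30.3 rpm in *M. suffruticosa*, against 2.5, 0.163, 0.217 and 0.0673 rpm in *M. moricandioides*, whose highest plant was 8.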

How the data were processed

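RNA was taken from mature leaves of single plants and sequenced as single-end reads of 100 bases, which the authors aligned as translated sequence, with BLAT, against a reduced set of Arabidopsis gene models (TAIR10). Deposited counts of reads per gene model were used. Their table of normalised reads (rpm, reads per 1000000 counted) and edgeR results was not used, and 0 columns belonged to no sample. A deposited table of totals gave read counts and the percent mapped, in which 1 row matched no plant of these labels. The rpm values given here were computed from counted reads.

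Counts of all 11 libraries were filtered with filterByExpr (minimum count 10), scaled by TMM and fitted by edgeR (4.0.16, in R 4.3.3 with limma 3.58.1), and *M. suffruticosa* was compared with *M. moricandioides* by the quasi-likelihood F test, two-sided, at a Benjamini–Hochberg adjusted p of 0.01. The biological coefficient of variation was 0.26 with 8 residual degrees of freedom, and the script was tested on simulated data. Depth limits low transcripts most, so a group at 0 was set to a floor of 3 reads, and ratios of 1 to 3 reads carry 95% intervals of counting error only. *M. suffruticosa* plants 6 and 7 differed by more than counting noise (chi-square per gene 8.08, against 35.4 and 34.7 to plant 8). This does not show that they are independent. They were kept as 2 replicates because the labels name separate plants, and were also summed to 1.

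Genes were named by a rule. It took the 14 strongest in each direction with at least 10 rpm and no overlap. Another 6 in each direction had no reads in the other compared species. For each of 35 lists (850 genes) it took up to 3 higher, 3 lower and 2 with most reads. The extreme calls of 43 word groups and of annotation categories were added. Members and lists were chosen with earlier results of these data known. SCR, SHR, SUC2, SULTR2;2 and members named only with a fold change were added after their values were seen. Alternatives were RLE factors, library totals, other filters, DESeq2 (1.42.0), the exact test, 7 libraries only, other thresholds, a replicate block, plants 6 and 7 summed, and leaving out each plant. Tables and figures were made in Python 3.11.15 with pandas 2.3.3, numpy 2.4.6, scipy 1.17.1 and matplotlib 3.10.9.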

Additional observations from a re-analysis of the deposited data

Results flagged for a closer look

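In 12 of 239 named transcripts with enough reads (5.02%) 1 *M. moricandioides* plant stood apart from the other 3 by more than the 95% critical value of Dixon's test allows, and chance gives about 1 in 20. In rpm, plant 6 had 18.5 for MIF2 (others 0 to 0.0816), 1530 for PIP1;2 (1770 to 1820), 2.50 for AT1G50610 (0.0673 to 0.217), 13.5 for AT5G05070, a DHHC-type zinc finger protein (9.14 to 9.42), and 183 for AT1G15150 (159 to 163). Plant 8 had 93.7 for ASP1 (67.9 to 69.3), 40 for UGT72E1, a glucosyltransferase (13.5 to 16), and 19.9 for AT5G62710 (14.3 to 14.8). Plant 12 had 9.92 for FLM (15.1 to 15.3), 14.7 for UGT71C5 (8.16 to 9.10), and 34.2 for AT2G39130, an amino acid transporter (65.0 to 69.5). Plant 15 had 120 for COR47 (152 to 155).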

How the results depend on the processing

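Counts of calls depended on the tool and on single plants. No called named transcript changed sign in any alternative, 11 of 52 named transcripts without a call did in at least 1, and 154 of the 211 called ones kept their call whichever plant was left out. Against 1577 higher and 1373 lower transcripts, DESeq2 gave 2113 and 2107, an adjusted p of 0.05 gave 2811 and 2508, and a fold change tested against 2-fold 358 and 278. Leaving out 1 plant gave 973 to 1768 higher and 659 to 1693 lower, with the fewest higher without *M. suffruticosa* plant 6, the fewest lower without plant 7 (659; 683 without plant 6) and the most without *M. arvensis* plant 9. *M. suffruticosa* plants 6 and 7 summed to 1 replicate gave 1003 and 697. Scaling by library totals moved the median by 0.07 on the log2 scale and the share of higher calls to 59.8%, from 53.5%. A replicate block gave 79 higher and 67 lower with 2 residual degrees of freedom, but the numbers do not pair these plants: deviations of plants with the same number correlated at 0.00831 to 0.0298. Low transcripts are limited by depth, and 16.1% of those below 10 rpm were called.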
